A study of Homo sapiens with 10 samples.

Results

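The 10 genes described here were listed as feedback targets of fibroblast growth factor (FGF) and MAP kinase signalling, and their induction by it was not tested. They were followed through a neural differentiation of H9 cells, a human embryonic stem cell line. They were picked by symbol, with earlier results of these data known, and all 10 were found among the 42335 gene symbols of the deposited table. They include the phosphatases DUSP6 and DUSP4 and the signalling inhibitors SPRY1, SPRY2, SPRY4 and SPRED1. The others are the transcription factors ETV4 and ETV5, the immediate early gene IER3 and the FGF-binding protein gene FGFBP3. RNA sequencing was done on 10 libraries, 5 from a line with the genotype label SOX1-OT V1 PAKI (V1PAKI) and 5 from wild-type H9 cells (Ctrl), with 1 library per line at each of the stages d0, d4, d10, d16D and d16V. SOX1-OT is a long noncoding RNA gene near SOX1, a transcription factor gene of neural progenitors. What PAKI, D and V stand for is not written out in the labels, and neither is the number of clones behind the V1PAKI line.

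Both lines went through the same culture steps, per the labels' protocols. Stem cell colonies were loosened with dispase and grown in suspension as embryoid bodies in stem cell medium that lacked FGF-2. They received neural medium with N2 supplement and heparin from day 4 and were attached to plastic on day 7. A ventral telencephalon arm received 200 ng/ml Sonic hedgehog and 1.5 µM SAG, a hedgehog pathway agonist, from day 10. The labels do not say in words which day 16 sample had this treatment. Growth as aggregates, withdrawal of FGF-2, the medium and time changed together between the stages, so their parts in a stage change cannot be told apart.

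FGFs bind receptor tyrosine kinases on the cell surface, which act through RAS, RAF and MEK to switch on the kinases ERK1 and ERK2. Active ERK induces a set of early target genes, and several of their products dampen the signal that induced them. DUSP6 removes phosphate from ERK in the cytoplasm, DUSP4 acts on MAP kinases in the nucleus, and Sprouty and SPRED proteins hold the signal back between the receptor and RAF. Human embryonic stem cells are usually kept undifferentiated with added FGF2, and FGF signalling also takes part in forebrain patterning.

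Values are FPKM, which scale sequenced fragments to the length of the transcript and the size of the library, so levels of different genes can be set side by side. The deposited values hold no read counts, so the depth of the libraries is unknown and no counting interval could be given. FPKM summed to between 200509 and 256270 per library, and between 10193 and 15177 genes were listed at 0. SOX1-OT lay below 0.1 FPKM in both lines at d0, d4 and d10. It stood at 0.212 FPKM in V1PAKI against 1.87 FPKM in Ctrl at d16D, and at 1.22 FPKM in V1PAKI against 3.51 FPKM in Ctrl at d16V. Pluripotency markers summed to 1420 FPKM in V1PAKI and 1590 FPKM in Ctrl at d0, with 10 of 10 markers at 1 FPKM or more in both. At d16D and d16V 10 of 10 neural progenitor markers reached 1 FPKM in each of the 4 libraries, which the labels call hESC-derived NP cells. The labels give the d4 and d10 libraries the same name. At d4, however, 4 of the 10 neural progenitor markers in V1PAKI and 5 in Ctrl reached 1 FPKM, with SOX1 at 0.0613 FPKM in V1PAKI and 0.0605 FPKM in Ctrl, while 10 of 10 pluripotency markers did in both lines.

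The sequences shown first are the 250 bases before the RefSeq start (GRCh38.p14) of FGFBP3, the gene of the 10 with the largest rise between d10 and d16V, and of SPRY1 and SPRY2, whose levels passed no test at any stage. Capitals mark GGAA on either strand (TTCC on the strand shown), the core that ETS factors such as ETV4 and ETV5 bind. FGFBP3 lies at chr10:91909487-91909736 on the minus strand, SPRY1 at chr4:123396545-123396794 on the plus strand and SPRY2 at chr13:80341127-80341376 on the minus strand.
FGFBP3: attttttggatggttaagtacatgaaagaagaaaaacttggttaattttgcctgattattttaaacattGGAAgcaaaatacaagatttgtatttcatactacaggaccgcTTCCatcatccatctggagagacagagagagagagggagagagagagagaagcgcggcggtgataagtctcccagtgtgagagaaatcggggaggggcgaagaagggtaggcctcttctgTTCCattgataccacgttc
SPRY1: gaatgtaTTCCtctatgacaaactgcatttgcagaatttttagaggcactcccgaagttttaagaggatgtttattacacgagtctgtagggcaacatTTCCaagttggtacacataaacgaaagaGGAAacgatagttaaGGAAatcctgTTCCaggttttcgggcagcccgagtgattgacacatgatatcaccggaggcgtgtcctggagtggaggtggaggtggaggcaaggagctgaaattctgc
SPRY2: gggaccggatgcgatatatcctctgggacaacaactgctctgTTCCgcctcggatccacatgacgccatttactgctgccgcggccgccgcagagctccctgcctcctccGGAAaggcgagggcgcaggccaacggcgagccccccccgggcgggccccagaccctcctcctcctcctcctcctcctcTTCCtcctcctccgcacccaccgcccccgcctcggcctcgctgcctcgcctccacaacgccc
The last sequence, from the coding region of DUSP6 on chromosome 12, is the stretch whose product carries out the phosphatase reaction, with the codon of the catalytic cysteine in capitals. It covers bases 874 to 897 of the 1143 coding bases of a GENCODE 29 transcript of the gene.
DUSP6: catTGCttggctggcattagccgc

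The windows before RefSeq starts were given for 6 of the 10 genes, in 9 windows. GGAA was found 3 times in the FGFBP3 window, 5 times in the SPRY1 window and 3 times in the SPRY2 window shown. It is a common word: 92.7% of all 35116 windows of this length hold it on either strand, with a median of 3 matches. The longer ETS word CCGGAA, which contains GGAA, occurred in the SPRY2 window shown and in 1 further SPRY1 window, against 14.5% of all windows. The CIC word TGAATGAA (1.4% of all windows) and the AP-1 word TGANTCA (6.57%) were searched on both strands and occurred in none of the 9 windows.

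**Figure D1:**
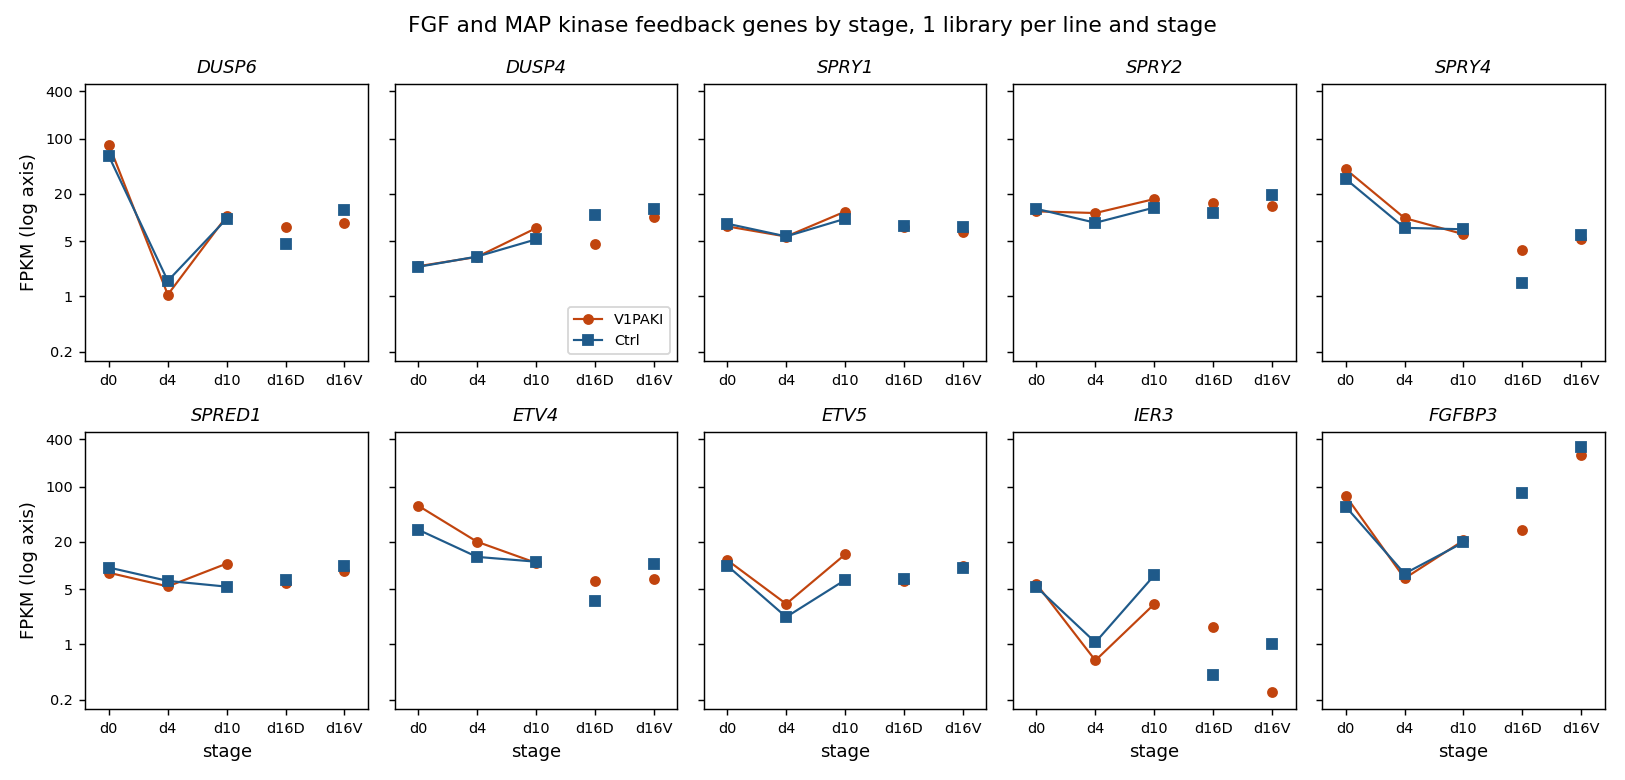
FPKM on a logarithmic axis for the 10 genes at each stage, with 1 point per library; V1PAKI is drawn in orange circles and Ctrl in blue squares, and lines join d0, d4 and d10. DUSP6 drops to 1.05 and 1.57 FPKM at d4 in V1PAKI and Ctrl, and FGFBP3 reaches 250.7 and 322 FPKM at d16V.

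The first change, of d4 embryoid bodies against d0 stem cells, was a fall of DUSP6, FGFBP3, SPRY4 and ETV5. Of the 10 genes, 4 fell and none rose, where 0.311% of the 15779 genes tested fell and 0.507% rose. The list was chosen with earlier results of these data known, so its contrast with all genes is a description and not a test. The test was limma on log2(FPKM + 1) with stage and line as terms, with Benjamini-Hochberg adjustment over all genes tested and a threshold of 0.05. The median change of the 10 genes was -1.48 on the log2 scale, against 0.00 over all genes tested. The other 6 did not pass. Of these, SPRY1, SPRY2, SPRED1 and DUSP4 lay within -0.50 and 0.30 on the log2 scale.

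DUSP6, the ERK phosphatase, lies at chr12:89347232-89353271 (GRCh38, GENCODE 29). It stood at 1.05 FPKM in V1PAKI and 1.57 FPKM in Ctrl at d4, against 83.9 and 60.1 FPKM in V1PAKI and Ctrl at d0. Both d4 libraries lay far below every other library, and the share of all genes that separate in this way was not computed. The level was 79.7-fold lower at d4 than at d0 in V1PAKI and 38.2-fold lower in Ctrl. The log2 change was -4.97 (SE 0.30, limma adjusted p = 0.00349), the largest fall of all genes tested in this fit. Without either d0 library the adjusted p rose to at most 0.0785, and no gene of the table then passed in this comparison.

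FGFBP3 (chr10:91906589-91909483), which encodes a secreted carrier of FGFs, showed the fall that ranked second of all genes tested. Its level at d4 was 6.89 FPKM in V1PAKI and 7.91 FPKM in Ctrl, against 76.8 and 56.1 FPKM in V1PAKI and Ctrl at d0. The log2 change was -2.99 (SE 0.42, limma adjusted p = 0.037). SPRY4 (chr5:142310427-142326455), a Sprouty inhibitor of the RAS to ERK path, stood at 9.86 FPKM in V1PAKI and 7.41 FPKM in Ctrl at d4, against 41.1 and 30.9 FPKM in V1PAKI and Ctrl at d0. It was 4.17-fold lower in each line, with a log2 change of -1.94 (SE 0.30, limma adjusted p = 0.0386).

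ETV5 (chr3:186046308-186110318), an ETS factor of the PEA3 group, was at 3.27 FPKM in V1PAKI and 2.23 FPKM in Ctrl at d4, against 11.7 and 9.98 FPKM in V1PAKI and Ctrl at d0. The log2 change was -1.67 (SE 0.27, limma adjusted p = 0.0438). Its close relative ETV4 (chr17:43527844-43579620) stood at 20.1 FPKM in V1PAKI and 12.9 FPKM in Ctrl at d4, against 57.7 and 28.6 FPKM in V1PAKI and Ctrl at d0. ETV4 was lower at d4 than at d0 in both lines, but the log2 change of -1.28 (SE 0.36) did not pass (limma adjusted p = 0.205). IER3 (chr6:30743199-30744554), an immediate early gene linked to cell survival, stood at 0.627 FPKM in V1PAKI and 1.06 FPKM in Ctrl at d4, against 5.83 and 5.35 FPKM in V1PAKI and Ctrl at d0. The log2 change of -1.85 (SE 0.42) did not pass either (limma adjusted p = 0.115).

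The calls at d4 rest on few libraries. Leaving out either d0 library left none of the 4, and leaving out either d4 or either d16V library left DUSP6 alone. With either d16D library left out IER3 passed too, as did more of all genes tested. With no filter on low values DUSP6 alone of the 10 passed, where 7 of all genes tested fell. In TPM DUSP6 and FGFBP3 passed, where 25 of all genes tested fell. SPRY4 was lost with a pseudocount of 0.1, where 27 fell. With 1 library per line and stage, the p-values measure how far the lines and stages spread around the fit, not the spread of repeated cultures. In these bulk libraries fewer cells that express a gene and less RNA of it per cell cannot be told apart. At unadjusted p under 0.05, 6 of the 10 genes fell and 0 rose, where 882 of the 15779 genes tested fell and 988 rose.

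The other lists of the pathway held no gene whose fall passed at d4 against d0. Of the 9 FGF ligand genes tested 2 rose and none fell, with a median log2 change of 0.27. FGF4, an FGF of stem cells and early embryos, stood at 8.64 FPKM in V1PAKI and 7.87 FPKM in Ctrl at d4, against 0.316 and 0.675 FPKM in V1PAKI and Ctrl at d0 (log2 change 2.64, SE 0.40, limma adjusted p = 0.0384). FGF8, a patterning signal of the anterior neural border, stood at 1.66 FPKM in V1PAKI and 2.80 FPKM in Ctrl at d4, against 0.168 and 0.0477 FPKM in V1PAKI and Ctrl at d0 (1.52, SE 0.22, limma adjusted p = 0.0371).

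Among 8 FGF receptor and coreceptor genes tested no change passed (median 0.43). Nor did any of 20 genes of the ERK cascade (median -0.06) or any of 17 other ERK output and feedback genes (median 0.01) pass. The last list holds IL17RD, an inhibitor of FGF receptor signalling, which was picked after its values were seen. It stood at 5.15 FPKM in V1PAKI and 5.95 FPKM in Ctrl at d4, against 17.9 and 15.5 FPKM in V1PAKI and Ctrl at d0, and its log2 change of -1.43 (SE 0.27) did not pass (limma adjusted p = 0.065). Of 6 other dual-specificity phosphatases tested 1 rose, DUSP10, which acts mainly on stress kinases (log2 change 1.45, SE 0.20, limma adjusted p = 0.0371).

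**Figure D2:**
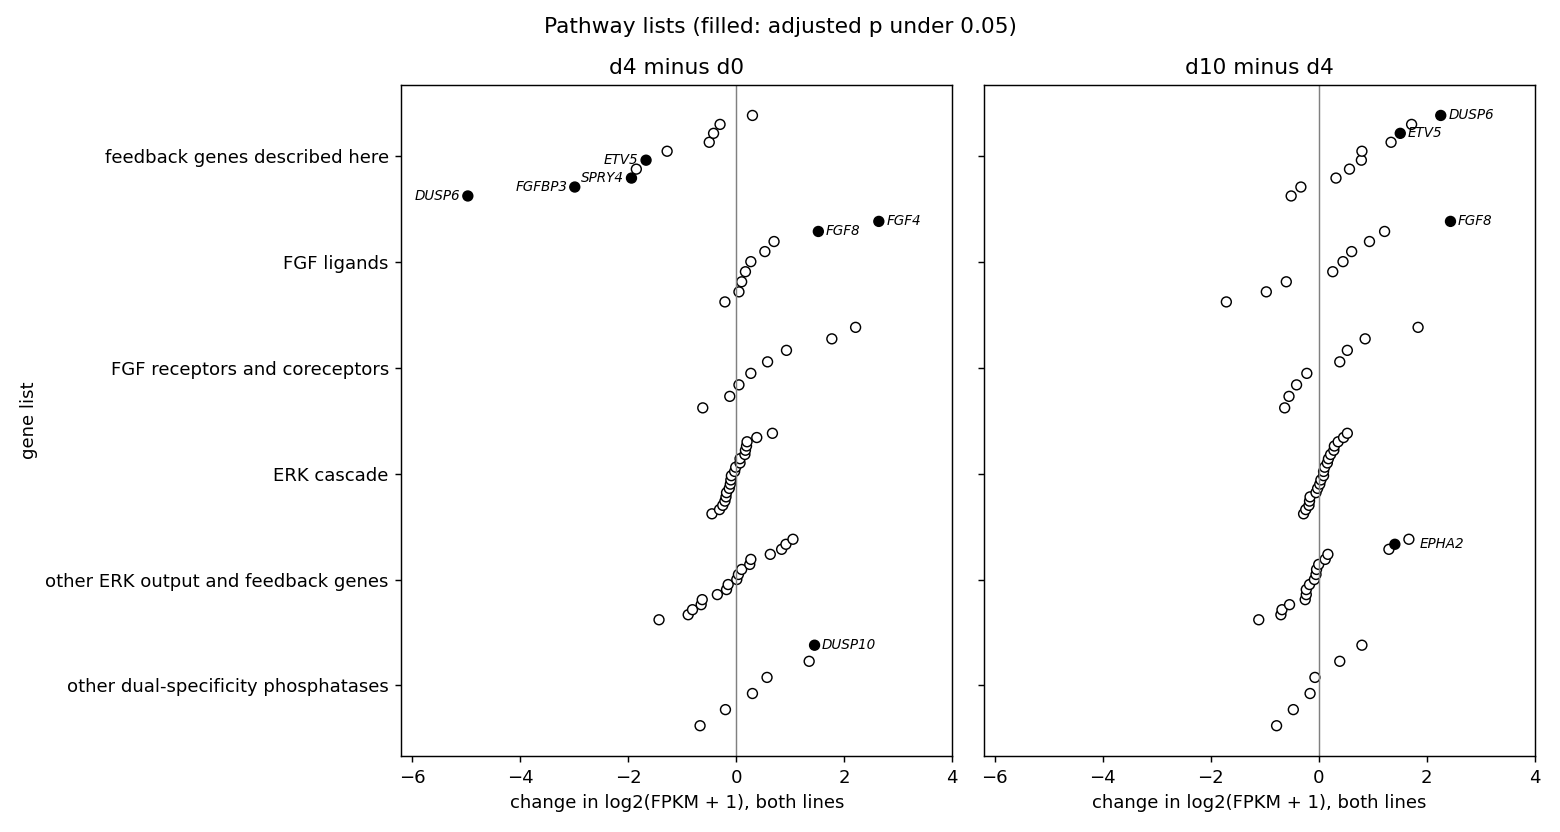
Change in log2(FPKM + 1) at d4 minus d0 (left) and d10 minus d4 (right), with 1 point per gene tested and 1 row per list; filled points passed an adjusted p of 0.05. In the left panel 4 of the 10 genes described here are filled on the falling side, and the filled points of the other lists, FGF4, FGF8 and DUSP10, lie on the rising side.

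Of the cell type markers, 1 passed between these stages. Pluripotency markers summed to 1824 FPKM in V1PAKI and 1807 FPKM in Ctrl at d4, with 10 of 10 at 1 FPKM or more, and no pluripotency marker passed the test of d4 against d0. Among neural progenitor, mesenchyme and muscle, endoderm and neural crest markers none passed either, and of 8 trophoblast and amnion markers tested 1 rose, TFAP2C. Estimates that did not pass reached 2.96 on the log2 scale for UTF1 and 4.05 for APOA1, picked after their values were seen. Neural progenitor markers summed to 183 FPKM in V1PAKI and 198 FPKM in Ctrl at d4, against 134 and 95.5 FPKM in V1PAKI and Ctrl at d0. SOX2, which is in both the pluripotency and the neural progenitor list, held 120 and 128 FPKM of these sums in V1PAKI and Ctrl at d4. At d0 SOX2 stood at 58.9 FPKM in V1PAKI and 40.9 FPKM in Ctrl. Of the 10 neural progenitor estimates 6 were above 0. Summed endoderm markers were at 34.8 FPKM in V1PAKI and 21.4 FPKM in Ctrl at d4, against 0.785 and 0.173 FPKM in V1PAKI and Ctrl at d0, where 6 of 10 and 8 of 10 were listed at 0. Their part in the changes of the 10 genes was not tested.

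From d4 to d10, after the move to neural medium and attachment, DUSP6 and ETV5 rose and none of the 10 genes fell. Over all genes tested 0.919% rose and 0.52% fell. DUSP6 stood at 10.4 FPKM in V1PAKI and 9.68 FPKM in Ctrl at d10, against 1.05 and 1.57 FPKM in V1PAKI and Ctrl at d4. The log2 change was 2.26 (SE 0.30, limma adjusted p = 0.0207), and the d10 levels stayed below those of d0 in both lines.

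ETV5 was at 13.9 FPKM in V1PAKI and 6.57 FPKM in Ctrl at d10, against 3.27 and 2.23 FPKM in V1PAKI and Ctrl at d4, a log2 change of 1.51 (SE 0.27, limma adjusted p = 0.045). The V1PAKI library at d10 held the highest ETV5 level of the series. IER3 (3.25 FPKM in V1PAKI and 7.55 FPKM in Ctrl at d10, log2 change 1.72, limma adjusted p = 0.101), FGFBP3 (20.8 and 19.7 FPKM in V1PAKI and Ctrl at d10, 1.34, limma adjusted p = 0.176) and SPRY1 (11.9 and 9.66 FPKM in V1PAKI and Ctrl at d10, 0.80, limma adjusted p = 0.1) were higher at d10 in both lines without passing.

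SPRY4 and ETV4 were the genes of the 10 with negative estimates at this step, -0.33 and -0.51 on the log2 scale, and neither passed. Thus SPRY4 stood at 6.16 FPKM in V1PAKI and 7.10 FPKM in Ctrl at d10, and ETV4 at 10.9 FPKM in V1PAKI and 11.2 FPKM in Ctrl. Both genes were at their lowest in each line at d16D. The median of the 10 genes was 0.79, against -0.01 over all genes. At unadjusted p under 0.05, 6 of the 10 rose and 0 fell, where 1232 of the 15779 genes tested rose and 1165 fell. Leaving out either d4 library or the V1PAKI d10 library left none of the calls, and those of all other genes were lost too. Without the Ctrl d10 library ETV5 alone passed, and without either d0 or either d16V library DUSP6 alone passed. IER3 and FGFBP3 passed too without either d16D library, where more of all genes tested passed as well. No gene of the 10 passed when low values were not filtered, where 2 of all genes tested rose and 1 fell.

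Among the other lists at d10 against d4, FGF8 rose again, to 15.6 FPKM in V1PAKI and 17.1 FPKM in Ctrl (log2 change 2.44, SE 0.22, limma adjusted p = 0.0125), the 1 call among 9 ligands. EPHA2, an ephrin receptor induced by ERK, was the 1 call among 17 other output genes, at 11.3 FPKM in V1PAKI and 17.1 FPKM in Ctrl at d10 against 4.94 and 4.33 FPKM in V1PAKI and Ctrl at d4 (1.41, SE 0.24, limma adjusted p = 0.0414). No receptor, cascade gene or other dual-specificity phosphatase passed. Markers moved as well: 3 of 10 pluripotency markers fell and 3 of 10 neural progenitor markers rose, while 1 mesenchyme and muscle marker (ACTA2) and 1 trophoblast and amnion marker (CGA) rose. Their part in the changes of DUSP6 and ETV5 was not tested.

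**Figure D3:**
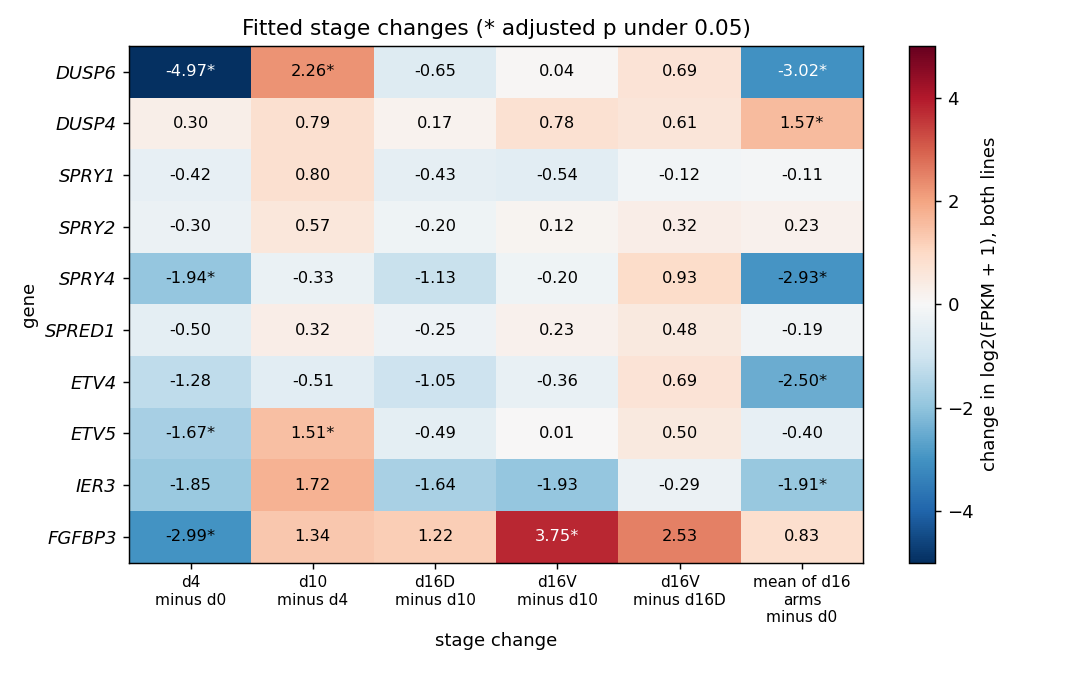
Change in log2(FPKM + 1) over both lines for each of the 10 genes (rows) in 6 stage changes (columns), as a colour scale with the value printed in each cell; blue is lower and red higher at the later stage, and a star marks an adjusted p under 0.05. DUSP6 stands at -4.97 for d4 minus d0 and at 2.26 for d10 minus d4, and FGFBP3 at 3.75 for d16V minus d10.

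From d10 to day 16 FGFBP3 rose in the d16V libraries. It stood at 250.7 FPKM in V1PAKI and 322 FPKM in Ctrl at d16V, against 20.8 and 19.7 FPKM in V1PAKI and Ctrl at d10, which is 12-fold higher in V1PAKI and 16.3-fold higher in Ctrl. Both d16V libraries lay above every other library, and the share of all genes that separate in this way was not computed. The log2 change was 3.75 (SE 0.42, limma adjusted p = 0.0103), the eighth largest rise among all genes tested. It was 1 of 10 genes to rise, with 0 to fall, against 0.52% and 0.292% of all genes tested. Leaving out any of the 2 d10 or the 2 d16V libraries ended the call, with an adjusted p of at most 0.105, and so did testing with no filter on low values. Neural progenitor markers summed to 742 FPKM in V1PAKI and 701 FPKM in Ctrl at d16V, against 325 and 249.9 FPKM in V1PAKI and Ctrl at d10, and 4 of 10 rose. Of 10 pluripotency markers 3 fell, of 8 trophoblast and amnion markers tested 2 fell, and no mesenchyme and muscle, endoderm or neural crest marker passed. The part of these cell types in the FGFBP3 values was not tested.

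The other genes passed no test between d10 and d16V. DUSP6 was at 8.61 FPKM in V1PAKI and 12.3 FPKM in Ctrl at d16V, DUSP4 at 10.1 FPKM in V1PAKI and 12.9 FPKM in Ctrl, and SPRY2 at 14.2 FPKM in V1PAKI and 19.4 FPKM in Ctrl. IER3 was low, at 0.252 FPKM in V1PAKI and 1.01 FPKM in Ctrl. Its log2 change from d10 of -1.93 (SE 0.42) did not pass (limma adjusted p = 0.0843). It did without either d16D library, where more of all genes tested passed as well.

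Between d10 and d16D none of the 10 genes passed, where 0.551% of all genes rose and 0.38% fell. At unadjusted p under 0.05, 1 of the 10 rose and 3 fell, where 1497 of the 15779 genes tested rose and 1180 fell. FGFBP3 stood at 27.9 FPKM in V1PAKI and 83.4 FPKM in Ctrl at d16D, a log2 change of 1.22 from d10 (limma adjusted p = 0.206). SPRY4 was at 3.90 FPKM in V1PAKI and 1.47 FPKM in Ctrl at d16D (-1.13, limma adjusted p = 0.135), and ETV4 at 6.41 FPKM in V1PAKI and 3.55 FPKM in Ctrl (-1.05, limma adjusted p = 0.206). Without the V1PAKI d16D library FGFBP3 rose and SPRY4 and IER3 fell, and more of all genes tested passed in both directions. Of the markers, 4 of 10 neural progenitor genes and 1 of 10 endoderm genes (ALB) rose from d10 to d16D, and 4 of 10 pluripotency genes and 1 of 8 trophoblast and amnion genes (CGA) fell.

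Between the day 16 samples, d16V against d16D, 0 of the 10 genes passed by limma, against 0.196% of all genes that rose and 0.165% that fell. At unadjusted p under 0.05, 3 of the 10 rose and 0 fell, where 402 of the 15779 genes tested rose and 440 fell. FGFBP3 was 8.97-fold higher at d16V than at d16D in V1PAKI and 3.86-fold higher in Ctrl, a log2 difference of 2.53 (SE 0.42, limma adjusted p = 0.0762). It passed when values were scaled by medians of ratios, when the line was left out as a term or when the Ctrl d16D library was left out. In the FGF ligand, receptor, ERK cascade, other output and other phosphatase lists no gene passed for d16D against d10, d16V against d10 or d16V against d16D. No marker of the 6 cell type lists passed between d16V and d16D, but their sums differed. Endoderm markers summed to 22.3 FPKM at d16V against 2384 FPKM at d16D in V1PAKI, and to 251 FPKM at d16V against 417 FPKM at d16D in Ctrl. AFP alone held 1242 FPKM of the d16D sum in V1PAKI and 226 FPKM in Ctrl. FOXA2, of the same list, went the other way. It stood at 10.98 FPKM at d16V against 2.70 FPKM at d16D in V1PAKI, and at 8.12 FPKM against 0.403 FPKM in Ctrl. Mesenchyme and muscle markers summed to 14.1 FPKM at d16V against 1139 FPKM at d16D in V1PAKI, and to 308 FPKM at d16V against 185.8 FPKM at d16D in Ctrl. The part of these cells in the FGFBP3 difference was not tested.

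Against d0, the mean of the day 16 libraries showed 4 of the 10 genes lower and 1 higher, in a comparison where 15.1% of all genes tested fell and 17.4% rose. DUSP6, SPRY4, ETV4 and IER3 fell and DUSP4 rose. The mean log2 change of DUSP6 was -3.02 (SE 0.26, limma adjusted p = 0.000444), of SPRY4 -2.93 (SE 0.26, limma adjusted p = 0.000481) and of ETV4 -2.50 (SE 0.31, limma adjusted p = 0.00171). IER3 changed by -1.91 (SE 0.36, limma adjusted p = 0.00766). All 4 day 16 libraries lay below both d0 libraries for each of these 4 genes, which had passed this same comparison. How many of all genes separate in this way was not computed.

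DUSP4, the nuclear phosphatase, on chromosome 8, took the opposite course. In V1PAKI it stood at 2.41, 3.17, 7.33, 4.68 and 10.1 FPKM at d0, d4, d10, d16D and d16V. In Ctrl the values were 2.37, 3.20, 5.29, 10.7 and 12.9 FPKM at d0, d4, d10, d16D and d16V. The lowest levels were those of d0 in both lines and the highest those of d16V. The mean day 16 change against d0 was 1.57 on the log2 scale (SE 0.28, limma adjusted p = 0.00629), and it missed the threshold without the Ctrl d0 library (adjusted p = 0.0756). IER3 missed it without either d0 library, with an adjusted p of at most 0.0611.

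ETV5 and FGFBP3 passed no test in the mean of the day 16 libraries against d0. ETV5 stood at 6.41 FPKM in V1PAKI and 6.73 FPKM in Ctrl at d16D and at 9.94 and 9.40 FPKM in V1PAKI and Ctrl at d16V (mean day 16 log2 change from d0 -0.40, limma adjusted p = 0.221). For FGFBP3 the mean day 16 log2 change was 0.83 (limma adjusted p = 0.113; without the V1PAKI d16D library adjusted p = 0.00932). Against d0 its level was 3.26-fold higher at d16V in V1PAKI and 5.74-fold higher in Ctrl, while at d16D it was 2.75-fold lower in V1PAKI and 1.49-fold higher in Ctrl. These p-values do not show that the levels are the same.

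SPRY1, SPRY2 and SPRED1 varied least. SPRY1 (chr4:123396795-123403760), a Sprouty inhibitor, ranged from 5.75 to 11.9 FPKM in V1PAKI and from 5.77 to 9.66 FPKM in Ctrl, lowest at d4 and highest at d10 in both lines. SPRY2 (chr13:80335976-80340951), its paralogue, ranged from 11.4 to 17.2 FPKM in V1PAKI and from 8.60 to 19.4 FPKM in Ctrl. SPRED1 (chr15:38252326-38357249), which brings the RAS inactivator neurofibromin to the membrane, ranged from 5.45 to 10.6 FPKM in V1PAKI and from 5.41 to 9.81 FPKM in Ctrl. The ratio of the highest to the lowest level in a line lay between 1.5 and 2.26 for these 3 genes, against 38.2 or more for DUSP6 in each line, and none of the 3 passed in any of the 7 comparisons tested.

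The pathway lists at day 16 against d0 moved in both directions. Of 9 FGF ligands 5 rose and 1 fell. FGF8 rose most, with a log2 change of 3.98 (SE 0.19, limma adjusted p = 0.000137), and FGF2, the FGF of stem cell media, fell by 1.72 (SE 0.25, limma adjusted p = 0.003). FGF2 RNA stood at 4.64 and 4.996 FPKM in V1PAKI at d16D and d16V and 4.27 and 5.67 FPKM in Ctrl, against 16.1 FPKM in V1PAKI and 21.0 FPKM in Ctrl at d0.

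Of 8 receptor and coreceptor genes 4 rose and 1 fell; FLRT3, a membrane protein that binds FGF receptors, rose by 3.40 (SE 0.30, limma adjusted p = 0.000481) and FGFR4 fell by 2.00 (SE 0.38, limma adjusted p = 0.00769). Of 20 ERK cascade genes 2 rose and 2 fell, among them MAP2K1, the kinase MEK1, at -0.91 (SE 0.19, limma adjusted p = 0.0107) and CIC, a repressor that ERK relieves, at 1.53 (SE 0.20, limma adjusted p = 0.00204). Of 17 other output genes 3 rose and 4 fell, with DUSP5, a nuclear ERK phosphatase, at -2.43 (SE 0.48, limma adjusted p = 0.00862) and EPHA4, an ephrin receptor, at 2.76 (SE 0.45, limma adjusted p = 0.00456). Of 6 other dual-specificity phosphatases 3 rose and 2 fell. The median log2 changes of these lists lay between 0.14 and 0.91, against -0.29 for the 10 genes and 0.07 for all genes tested.

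Cell identity differed widely between these stages. Against d0, the day 16 mean was higher for 10 of 10 neural progenitor markers and lower for 9 of 10 pluripotency markers. SOX2, which is in both of these lists, rose. Of the other lists, 6 of 10 endoderm and 3 of 10 mesenchyme and muscle markers rose. The endoderm markers that rose include FOXA2 and FOXA1. These were the 2 of 10 endoderm markers with an estimate above 0 for d16V minus d16D. The estimates were 2.20 for FOXA2 and 0.02 for FOXA1 on the log2 scale, and neither passed. FOXA2 was higher at d16V than at d16D in both lines. Of 8 trophoblast and amnion markers tested 1 rose and 1 fell, and of 8 neural crest markers 2 fell. The part of these cell types in the day 16 values of the 10 genes was not tested.

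**Figure D4:**
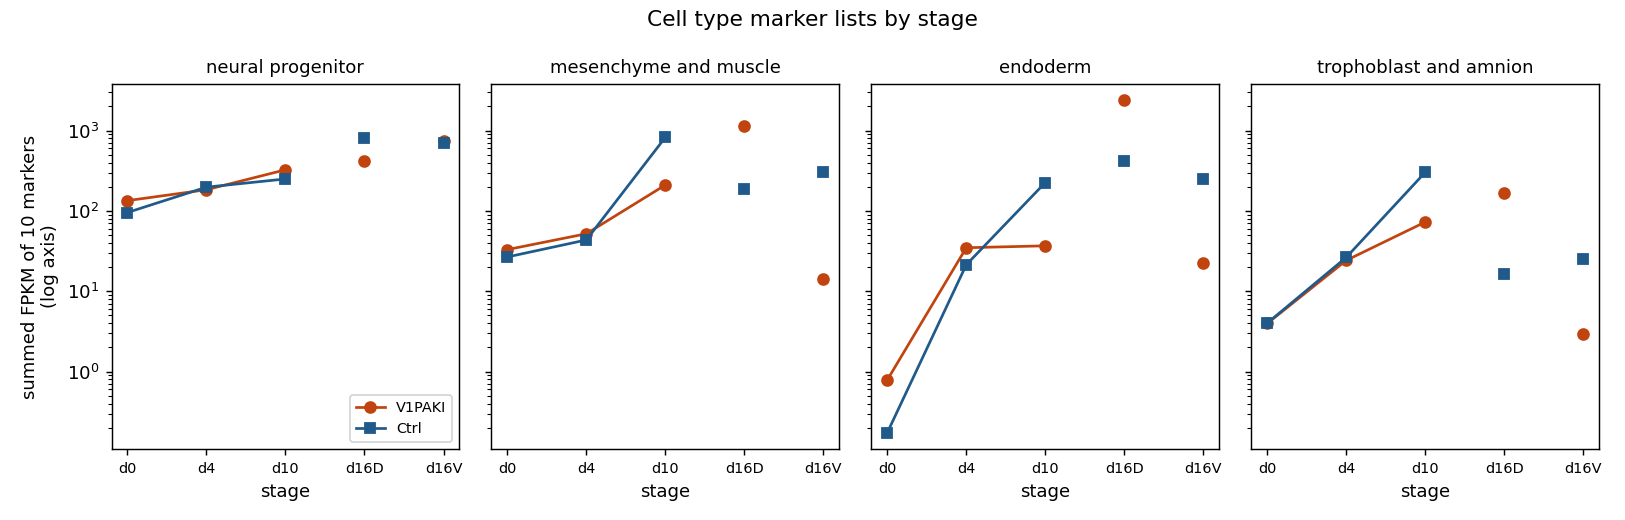
Summed FPKM of 10 markers each of neural progenitors, mesenchyme and muscle, endoderm, and trophoblast and amnion in each library, on a logarithmic axis; V1PAKI is drawn in orange circles and Ctrl in blue squares. Mesenchyme and muscle markers sum to 1139 FPKM in V1PAKI and 185.8 FPKM in Ctrl at d16D, and to 14.1 and 308 FPKM in V1PAKI and Ctrl at d16V.

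The difference between the lines over the 5 stages passed for none of the 10 genes by limma, where 3 of all genes tested (0.019%) fell and none (0%) rose. At unadjusted p under 0.05, 0 of the 10 passed, where 161 of all genes tested rose and 229 fell. Estimates (V1PAKI minus Ctrl) were 0.08 for DUSP6 (SE 0.19), 0.34 for ETV4 (SE 0.23), 0.32 for ETV5 (SE 0.17), 0.29 for SPRY4 (SE 0.19) and -0.31 for FGFBP3 (SE 0.26), each with a limma adjusted p of 1. The median was 0.06 for the 10 genes and -0.02 for all genes tested.

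At single stages, with 1 library per line and no test, a difference of at least 1 on the log2 scale was counted over genes that reached 1 FPKM in 1 line or both. At d0 none of the 10 genes reached it, against 3.73% of all genes counted that were higher in V1PAKI and 0.82% that were lower. None reached it at d4 either, against 0.797% that were higher and 0.857% that were lower. The largest difference at d0 was that of ETV4, at 0.99, with 57.7 FPKM in V1PAKI and 28.6 FPKM in Ctrl, and 7 of the 10 genes were higher in V1PAKI. The median difference at d0 was 0.16 for the 10 genes and 0.11 over all genes counted, so both leaned to higher values in V1PAKI. The share of all genes higher by any amount was not computed. With a pseudocount of 0.1, 1 of the 10 genes was past the fold on the higher side, and the share of all genes past it in this setting was not computed. DUSP6 was at 83.9 FPKM in V1PAKI and 60.1 FPKM in Ctrl at d0.

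At d10 IER3 alone reached the fold, at 3.25 FPKM in V1PAKI and 7.55 FPKM in Ctrl (-1.01), where 7.45% of all genes counted were lower in V1PAKI by the fold and 3.78% were higher. ETV5 (13.9 FPKM in V1PAKI and 6.57 FPKM in Ctrl, 0.97) and SPRED1 (10.6 FPKM in V1PAKI and 5.41 FPKM in Ctrl, 0.86) lay just under it on the other side, where 1 of the 10 genes was past the fold with a pseudocount of 0.1 and 2 in TPM. The share of all genes past the fold in those settings was not computed. The d10 libraries also differed in markers of other cell types. Summed mesenchyme and muscle markers were at 210.3 FPKM in V1PAKI and 825 FPKM in Ctrl (9 of 10 and 10 of 10 at 1 FPKM or more, none at 0), endoderm markers at 36.8 and 226 FPKM in V1PAKI and Ctrl (4 of 10 and 8 of 10) and trophoblast and amnion markers at 72.7 and 303 FPKM in V1PAKI and Ctrl (7 of 10 and 10 of 10). HAND1 alone held 41.4 FPKM of the trophoblast and amnion sum in V1PAKI and 223 FPKM in Ctrl. The part of these cell types in the d10 differences was not tested.

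At d16D 2 of the 10 genes reached the fold, both lower in V1PAKI, against 3.46% of genes that were lower and 5.5% that were higher. DUSP4 stood at 4.68 FPKM in V1PAKI and 10.7 FPKM in Ctrl (-1.04), and FGFBP3 at 27.9 FPKM in V1PAKI and 83.4 FPKM in Ctrl (-1.54), 2.98-fold lower in V1PAKI. SPRY4 (3.90 FPKM in V1PAKI and 1.47 FPKM in Ctrl, 0.99) and IER3 (1.66 FPKM in V1PAKI and 0.412 FPKM in Ctrl, 0.91) lay just under the fold in the other direction. As ratios of FPKM, without the pseudocount of 1, SPRY4 was 2.66-fold and IER3 4.04-fold higher in V1PAKI. With a pseudocount of 0.1, or in TPM, 2 of the 10 genes were past the fold on the higher side. The share of all genes past it in these settings was not computed. Among the marker sums, mesenchyme and muscle stood at 1139 FPKM in V1PAKI and 185.8 FPKM in Ctrl (10 of 10 in both), endoderm at 2384 FPKM in V1PAKI and 417 FPKM in Ctrl (10 of 10 and 5 of 10), and trophoblast and amnion at 165 FPKM in V1PAKI and 16.6 FPKM in Ctrl (7 of 10 and 4 of 10), none with a marker at 0. Of the endoderm sum AFP held 1242 FPKM in V1PAKI and 226 FPKM in Ctrl, and APOA1 679 FPKM in V1PAKI and 107 FPKM in Ctrl. HAND1 alone held 133.9 FPKM of the trophoblast and amnion sum in V1PAKI and 8.41 FPKM in Ctrl. CGA, of the same list, went the other way, at 0.042 FPKM in V1PAKI and 0.646 FPKM in Ctrl. Neural progenitor markers summed to 413 FPKM in V1PAKI and 803 FPKM in Ctrl. The part of these cells in the d16D differences was not tested.

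At d16V none of the 10 genes reached the fold, against 2.49% of genes that were lower and 0.412% that were higher. IER3, at 0.252 FPKM in V1PAKI and 1.01 FPKM in Ctrl, was 4-fold lower in V1PAKI as a ratio of FPKM and differed by -0.68 with the pseudocount of 1. With a pseudocount of 0.1, or in TPM, 1 of the 10 genes was past the fold on the lower side. The share of all genes past it in these settings was not computed. The median difference was -0.34 for the 10 genes and -0.07 over all genes counted, so both leaned to lower values in V1PAKI. Of the 10 genes 9 were lower, and the share of all genes lower by any amount was not computed. FGFBP3 was at 250.7 FPKM in V1PAKI and 322 FPKM in Ctrl, and ETV4 at 6.74 FPKM in V1PAKI and 10.4 FPKM in Ctrl. Mesenchyme and muscle markers summed to 14.1 FPKM in V1PAKI and 308 FPKM in Ctrl at this stage, with 6 of 10 and 10 of 10 at 1 FPKM or more. Endoderm markers summed to 22.3 FPKM in V1PAKI and 251 FPKM in Ctrl, and neural progenitor markers to 742 FPKM in V1PAKI and 701 FPKM in Ctrl. FOXA2 alone held 10.98 FPKM of the endoderm sum in V1PAKI and 8.12 FPKM in Ctrl. The part of these cell types in the d16V differences was not tested.

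**Figure D5:**
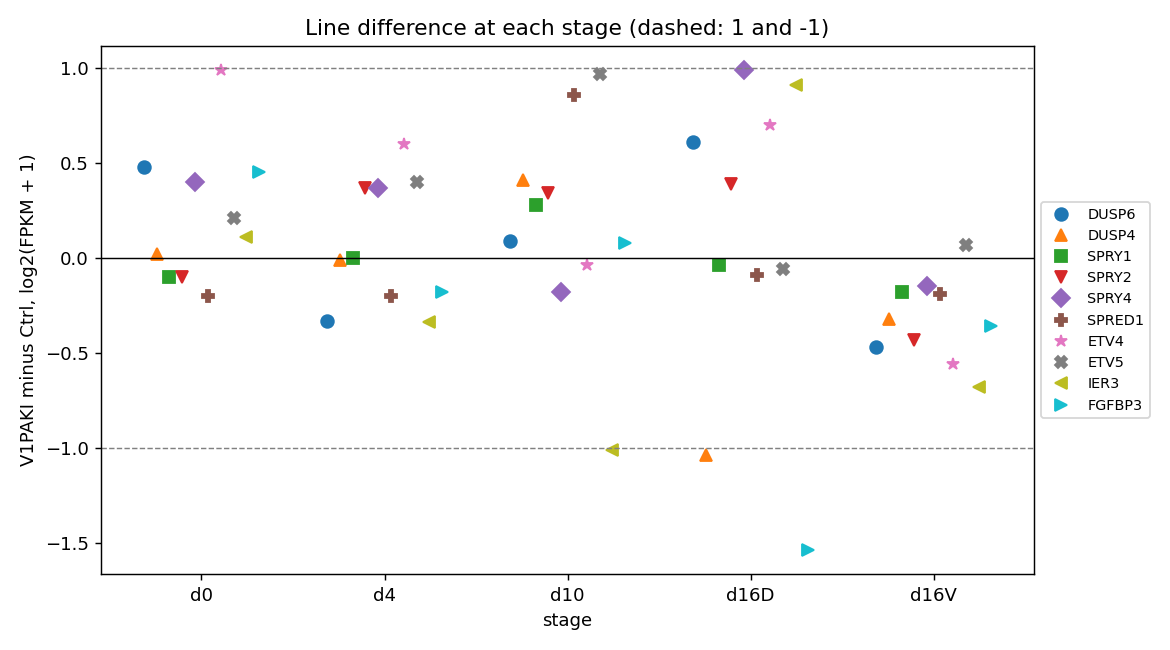
Difference V1PAKI minus Ctrl in log2(FPKM + 1) for each of the 10 genes at each stage, from 1 library per line; dashed lines mark a difference of 1 in either direction. Past the lines lie IER3 at d10 (-1.01) and DUSP4 (-1.04) and FGFBP3 (-1.54) at d16D.

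The 10 genes did not share 1 course over the 10 libraries. SPRY4 and ETV4 ran closest to each other, with a Pearson r of 0.97 between their log2 values. DUSP6 followed ETV5 at 0.77 and SPRY4 and IER3 at 0.68 each, while DUSP4 ran against ETV4 at -0.77 and against SPRY4 at -0.75. FGFBP3 followed ETV5 at 0.65 and SPRY4 at -0.05. These values describe 10 libraries that share 5 stages and their culture media, and carry no test.

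Among 5973 genes tested with at least 10 FPKM in some library, outside the 10, the courses most like that of DUSP6 included those of SCD (r 0.918), STARD4 (0.913), GNB4 (0.904) and CYP51A1 (0.895). SCD stood at 276, 91.5, 153, 193 and 181 FPKM in V1PAKI at d0, d4, d10, d16D and d16V. In Ctrl it stood at 298, 93.5, 149.6, 141 and 249 FPKM at the same stages, so its drop at d4 was shallower than that of DUSP6. Most like FGFBP3 were SOX4 (r 0.940), EP400 (0.939), SREBF2 (0.922), SREBF1 (0.904) and FADS2 (0.903). SOX4 was at 31.3 FPKM in V1PAKI and 27.9 FPKM in Ctrl at d4 and reached 77.5 and 71.7 FPKM in V1PAKI and Ctrl at d16V.

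Some reads could belong to neighbours, since the strand setting of the upstream counting is not given in the sources used here. An antisense gene covers 1875 of the 4632 exonic bases of DUSP6 in GENCODE 29. The deposited values hold none under its name, so its level could not be checked. For IER3 the antisense gene IER3-AS1 covers 359 of 1356 exonic bases, and its own value was at most 0.190 FPKM. For FGFBP3 the antisense gene AL359198.1 covers 270 of 2545 exonic bases. It stood at 2.82 FPKM in V1PAKI and 2.52 FPKM in Ctrl at d16V, its highest values, which is far below the FGFBP3 level there. The shares of reads from each strand cannot be told apart.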

How the data were processed

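Per the labels' protocols, RNA for the 10 H9 libraries was isolated with Trizol and prepared with a TruSeq RNA kit. A table of FPKM for 42335 gene symbols was deposited. Per the submitters' processing notes the tools were cutadapt 1.18, HISAT2 2.1.0 and Cufflinks on GRCh38; the sources used here name no annotation, filter or strand setting. Read counts cannot be had from these values, so depth is unknown.

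Values were taken as log2(FPKM + 1), which understates changes of low genes. A gene was tested if 2 or more libraries reached 1 FPKM, which kept 15779 genes and all 10 members. The fit used limma 3.58.1 in R 4.3.3 (lmFit, eBayes with trend), with stage and line as terms, 4 residual degrees of freedom (7.77 after moderation), two-sided tests and Benjamini-Hochberg adjustment over all genes. This gave 6 stage changes and the line difference. The fit was also run on simulated data with capped spreads and large planted changes. That run checked the code and does not bear on smaller changes in these data. Lines were compared at single stages without a test. The members, the 11 other lists (5 of the pathway, 6 of cell types) and the tests were chosen with earlier results of these data known. Besides the members, genes were named where they had the up to 3 largest changes each way among a list's called genes, or the 5 highest Pearson r with DUSP6 or FGFBP3 among genes reaching 10 FPKM; exceptions are marked, and 1 gene that the rule names is not reported here. Alternatives were another pseudocount, filters, TPM, median-of-ratios scaling, no line term, eBayes without trend, averaged day 16 arms and each library left out. RefSeq (GRCh38.p14) and GENCODE 29 gave sequences and coordinates, and sequences of ETV4, ETV5 and IER3 are not shown. Python 3.11.15 searched motifs on both strands.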

Additional observations from a re-analysis of the deposited data

Results flagged for a closer look

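Among all changes between stages looked at for the 10 genes, 3 went opposite ways in the lines, by at least 0.5 on the log2 scale in each. Some of these changes share libraries, and the share of all genes that move in opposite ways was not computed. Each rests on 1 library per line and stage, and the difference between the lines was not tested.

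DUSP4 changed from d10 to d16D by -0.55 in V1PAKI and by 0.89 in Ctrl, a difference of -1.44. FGFBP3 at d16D was 27.9 FPKM in V1PAKI and 83.4 FPKM in Ctrl, against 76.8 FPKM in V1PAKI and 56.1 FPKM in Ctrl at d0. Its changes against d0 were -1.43 in V1PAKI and 0.56 in Ctrl, a difference of -1.99. IER3 at d16V against d16D changed by -1.09 in V1PAKI and by 0.51 in Ctrl, a difference of -1.60, with all 4 values at 1.66 FPKM or less.

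All 3 differences use the d16D libraries. In those, summed endoderm markers stood at 2384 FPKM in V1PAKI and 417 FPKM in Ctrl, and mesenchyme and muscle markers at 1139 FPKM in V1PAKI and 185.8 FPKM in Ctrl. AFP alone held 1242 FPKM of the endoderm sum in V1PAKI and 226 FPKM in Ctrl. The part of those cells in these differences was not tested.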

How the results depend on the processing

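Of the stage results, the falls of DUSP6, SPRY4 and ETV4 at day 16 against d0 passed under all 10 settings that leave out a library and under the 7 other settings run. DUSP6 at d4 minus d0 passed in 8 of 10 and 7 of 7, with changes of -5.22 to -4.72 without a library. Counts of the 10 genes that moved by over 1.5 times were as follows. At d4 minus d0 4 fell, but 1 (DUSP6) with no filter and 2 in TPM. At d10 minus d4 2 rose, and at d16V minus d10 1 rose, but 0 in each with no filter. At d16V minus d16D 0 rose, but 1 (FGFBP3) with median-of-ratios scaling or no line term. V1PAKI minus Ctrl at or past 1 counted 0 higher and, with a pseudocount of 0.1, 1 at d0, 1 at d10 and 2 at d16D; in TPM 2 at d10 and 2 at d16D; with median-of-ratios scaling 1 at d16D. Lower in V1PAKI were 2 at d16D and 0 at d16V, but 1 at d16D with median-of-ratios scaling and 1 at d16V with the pseudocount of 0.1 and in TPM. For these counts between the lines, the share of all genes in the other settings was not computed. The cause of the moved counts was not tested.

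With 1 library left out the counts ranged from 0 to 5 that fell at d4 minus d0, 0 to 4 that rose at d10 minus d4, 0 to 1 that rose and 0 to 2 that fell at d16D minus d10, 0 to 1 that rose and 0 to 1 that fell at d16V minus d10, 0 to 1 that rose at d16V minus d16D, and 0 to 2 that rose at day 16 minus d0.

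Values that turned sign had not passed. SPRY1 turned to 0.09 in TPM for day 16 minus d0 and, for V1PAKI minus Ctrl, to 0.00 in TPM, 0.01 with median-of-ratios scaling and 0.02 with day 16 arms averaged. With median-of-ratios scaling, d16V minus d10 was -0.05 for DUSP6 and -0.07 for ETV5. With a library left out, d16V minus d10 ranged from -0.31 to 0.38 for DUSP6, -0.22 to 0.46 for SPRY2, -0.49 to 0.09 for SPRY4, -0.29 to 0.74 for SPRED1, -0.92 to 0.20 for ETV4 and -0.40 to 0.42 for ETV5. SPRED1 ranged from -0.19 to 0.83 at d10 minus d4 and -0.77 to 0.26 at d16D minus d10, DUSP4 from -0.36 to 0.70 at d16D minus d10, and at d16V minus d16D SPRY2 from -0.02 to 0.66 and IER3 from -0.99 to 0.41. V1PAKI minus Ctrl ranged from -0.06 to 0.21 for DUSP6, -0.34 to 0.02 for DUSP4, -0.08 to 0.03 for SPRY1 and -0.17 to 0.09 for SPRED1.

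TPM shifted the median of all genes to 0.12 at d10 minus d4 and 0.34 at day 16 minus d0, where 72.1% of calls were then rises against 53.6% in FPKM. At d10 minus d4 that share was 87.1% against 63.9%. A setting with 1 library of a stage assumes that it varies like the others. Stage changes were compared within each line through the line term. Beyond this pairing by line, no paired analysis was possible because each line has 1 library per stage and the labels give no other pairing.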
